A study of Drosophila melanogaster
Mus musculus with 36 samples.

Results

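The mir-17-92 cluster and its paralogs are mouse microRNA (miRNA) genes that were measured here as unmethylated RNA in mixtures with methylated fly RNA. The members were all entries named for mouse mir-17, mir-18a, mir-18b, mir-19a, mir-19b, mir-20a, mir-20b, mir-25, mir-92a, mir-93, mir-106a, mir-106b or mir-363, in any copy and on either arm of the hairpin. They made up 30 of 2038 entries, of which 1666 were mouse and 372 fly. The 30 entries are the 5p and 3p arms of 15 hairpins, since mir-19b and mir-92a each have 2 copies. Each entry is named with its arm below, and the prefix mmu-, for mouse, is left out.

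The samples were 18 mixtures of total RNA from Drosophila S2-S cells and from mouse embryonic stem (ES) cells of the clone AN3-12, at fly to mouse ratios of 1:1, 1:10, 1:100, 1:1000, 1:10000 and 1:100000, with 3 replicate mixtures per ratio. The fly cells carried a knockout of the methyltransferase gene Hen1 (DmHen1-KO) and expressed FLAG- and MYC-tagged HEN1 of Arabidopsis thaliana. The same fly and mouse RNA entered all groups. Each mixture was split, and one portion was oxidised with sodium periodate while the other was left untreated. The 12 groups of treatment and ratio thus held 3 libraries each. The input was 25 µg of mouse RNA plus the fly RNA in replicate 1, read on a HiSeq2500. In replicates 2 and 3 it was 50 µg for both species together, read on a HiSeq2000. The mouse line is 1 clone, and the labels do not say whether replicates came from separate cultures. The p-values below therefore measure only the spread between these libraries, which may be technical.

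The 3 loci are related by duplication. A primary transcript of mir-17-92 carries mir-17, mir-18a, mir-19a, mir-20a, mir-19b-1 and mir-92a-1. The mir-106a-363 locus carries mir-106a, mir-18b, mir-20b, mir-19b-2, mir-92a-2 and mir-363, and mir-106b-25 lies within the gene Mcm7 and carries mir-106b, mir-93 and mir-25. Dicer cuts each hairpin into a 5p and a 3p arm, of which usually one is kept in Argonaute as the guide. The guides fall into seed families: miR-17 (mir-17, mir-20a, mir-20b, mir-93, mir-106a, mir-106b), miR-18, miR-19 and miR-92 (mir-25, mir-92a, mir-363). These miRNAs are known as regulators of cell cycle entry and survival, with Cdkn1a and Bim among their targets, and are expressed in mouse ES cells. Animal miRNAs keep both hydroxyls of the 3′ end free, and periodate oxidises that end so that an adapter can no longer be ligated. HEN1 methylates the 2′ hydroxyl, which protects the end.

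The untreated libraries held 9559 to 1244310 member counts with a median of 263683. The oxidised libraries held 35 to 5552 with a median of 458, so values after oxidation rest on much smaller counts. Among mouse counts of the untreated libraries, ES cell miRNAs (mir-290 to mir-295, mir-302 and mir-367) made up 66.9% to 90.0%, and the lists for fibroblasts, neurons and blood stayed at or below 1.62% each. The muscle and liver lists were at or below 0.000753%. The entry mir-184-3p took 85.1% to 91.6% of all mouse counts in the oxidised 1:1 libraries and fell with the fly share in untreated libraries, so mouse totals are given without it where stated. 2 libraries stood apart, untreated 1:10000 replicate 1 and untreated 1:100000 replicate 1. The mir-290 to mir-295 cluster held 90.0% and 83.3% of their mouse counts without mir-184-3p, against 66.8% to 77.7% in the other 16 untreated libraries.

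In untreated RNA 1 arm of each hairpin held most of its counts. Taken as single entries, the members were led by mir-19b, mir-20a, mir-92a-1 and mir-17. The members held 5.44% to 9.31% of mouse counts in 16 untreated libraries, with a median of 7.35%. They held 1.96% in untreated 1:10000 replicate 1 and 3.63% in untreated 1:100000 replicate 1, below all other untreated libraries. Levels of single arms are given as a percent of the member counts of the library, which removes this difference in the sum. They are counts of reads per arm with no correction for length, since mature miRNAs are of nearly equal length.

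The mir-19b arms stood first. Over the 16 untreated libraries mir-19b-2-3p held 11.4% ± 1.08 (SD, n = 16) and mir-19b-1-3p 11.3% ± 1.08 of member counts. Both copies encode the same mature miRNA, a guide of the miR-19 family, and their counts could not be told apart. In 36 of 36 libraries the values of the copies differed by a whole number (within 0.05 counts), although mir-19b-1-3p itself was not whole in 26 of them. The difference was 0.194% to 0.434% of their sum in untreated libraries, so nearly all counts were divided evenly between the copies.

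Next among single entries came the miR-17 family guide mir-20a-5p at 11.1% ± 1.05 and the miR-92 family guide mir-92a-1-3p at 10.8% ± 1.86. The order is by entry, and mir-92a-1-3p shares its mature miRNA with mir-92a-2-3p, which is ranked apart. The name-giving guide mir-17-5p held 9.52% ± 0.914. Over all 18 untreated libraries mir-17-5p ranged from 3.08% to 11.1% with a median of 9.64%, and its lowest values were in the 2 libraries that stood apart. The remaining guides of the first locus were mir-19a-3p at 6.33% ± 1.48 and mir-18a-5p at 5.01% ± 0.580.

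The guides of mir-106b-25 were close to one another. They held 6.58% ± 1.29 for mir-93-5p, 5.89% ± 0.644 for mir-25-3p and 5.75% ± 0.545 for mir-106b-5p, both mir-93-5p and mir-106b-5p being miR-17 family guides. Apart from mir-19b-2-3p, the guides of mir-106a-363 stood below mir-18a-5p. They held 4.62% ± 0.604 for mir-20b-5p, 4.27% ± 0.684 for mir-92a-2-3p, 3.50% ± 0.552 for mir-106a-5p, 1.26% ± 0.173 for mir-363-3p and 0.384% ± 0.0374 for mir-18b-5p.

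Of the 14 steps between neighbours in this order, 5 were larger than the larger SD of the pair. These steps lay below mir-17-5p, mir-106b-5p, mir-92a-2-3p, mir-106a-5p and mir-363-3p. The last 2 of them kept their order in 18 of 18 untreated libraries.

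**Figure D1:**
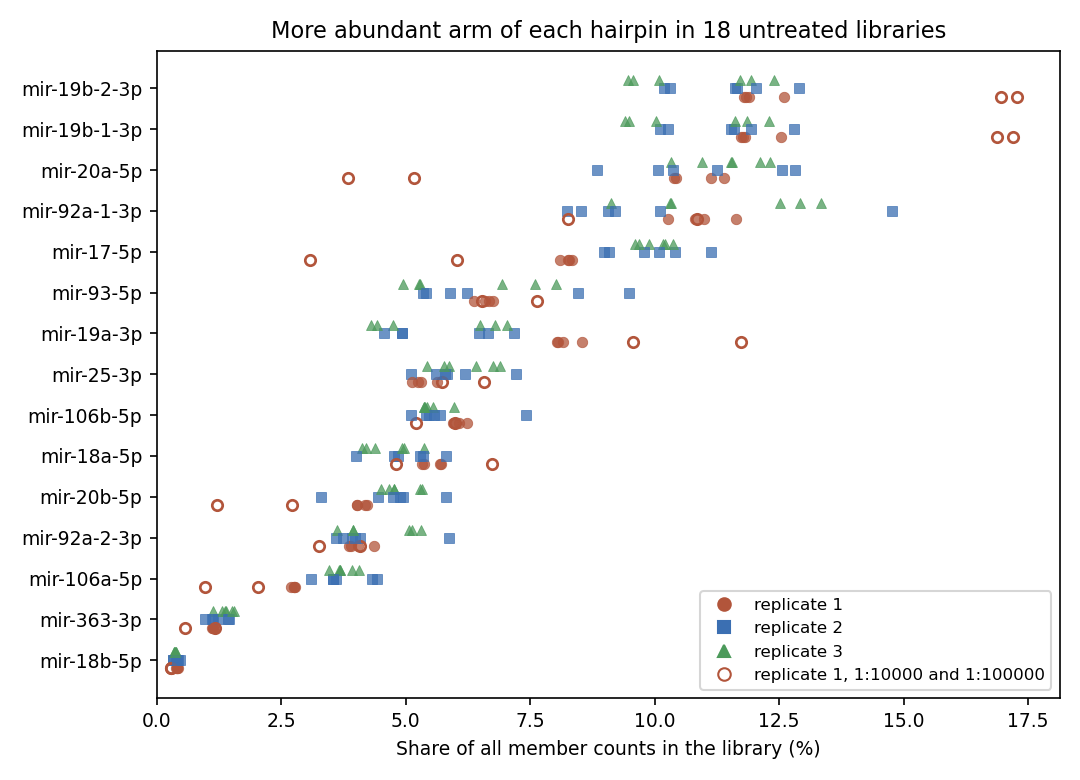
Percent of member counts (x axis) for the more abundant arm of the 15 hairpins (y axis) in 18 untreated libraries, 1 point per library, with replicate 1 as circles, 2 as squares and 3 as triangles. The open circles are the 2 libraries of replicate 1 that stood apart: they lie at 17.2% and 16.9% for mir-19b-1-3p and at 3.08% and 6.04% for mir-17-5p.

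The share of each locus varied by less between untreated libraries than the shares of the miR-17 and miR-19 families. The mir-17-92 locus held 55.1% ± 1.81 of member counts (SD, n = 18), mir-106a-363 26.0% ± 0.792 and mir-106b-25 18.9% ± 1.59. The ranges were 51.1% to 57.1%, 24.7% to 27.1% and 16.5% to 22.0% over all 18 libraries. Untreated 1:100000 replicate 1 gave the 27.1% of mir-106a-363, above the other libraries. The shares of mir-17-92 and mir-106a-363 depend on how reads shared by the copies of mir-19b and mir-92a were assigned. That rule was not given in the sources used here. By family, miR-17 held 40.9% ± 5.76, miR-19 31.0% ± 6.15, miR-92 22.3% ± 2.92 and miR-18 5.81% ± 0.727.

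In untreated 1:10000 replicate 1 the miR-17 family held 23.7% and the miR-19 family 46.7% of member counts. In untreated 1:100000 replicate 1 they held 31.0% and 43.7%. The other 16 untreated libraries had 39.0% to 49.6% for miR-17 and 23.5% to 33.9% for miR-19, so neither library overlapped them in either family. The difference was not shared by all miR-17 guides. The 5p arms of mir-17, mir-20a, mir-20b and mir-106a together held 9.11% and 15.96% in the 2 libraries against 25.3% to 34.2% in the others. The 5p arms of mir-93 and mir-106b held 12.5% and 12.9%, within the 10.3% to 14.9% of the others. In the oxidised libraries of the same mixtures the 5p arms of mir-17, mir-20a, mir-20b and mir-106a held 22.9% and 22.2%, within the 15.0% to 32.2% of all oxidised libraries.

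The replicate sets, which differ in input RNA and sequencer, also differed from one another, and the part of either was not tested. In replicate 1 the miR-19 family held 31.8%, 31.8% and 32.05% at the 3 least dilute ratios and 33.9% at 1:1000. In replicate 2 it held 25.4% to 28.4% from 1:1 to 1:100 and 29.9% to 33.2% from 1:1000 to 1:100000. In replicate 3 the ranges were 23.5% to 25.1% and 30.1% to 31.8%. Within both sets the miR-19 values from the less and the more dilute ratios did not overlap.

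The same 2 ranges of ratio, compared after their values were seen, separated other measures in replicates 2 and 3. The members' percent of mouse counts without mir-184-3p was 6.06% to 7.46% and then 8.48% to 9.31% in replicate 2. In replicate 3 it was 7.04% to 7.58% and then 8.79% to 9.09%. The mir-290 to mir-295 cluster moved the other way, from 73.2% to 77.7% down to 67.3% to 69.8% in replicate 2 and from 72.9% to 73.5% down to 66.8% to 68.2% in replicate 3. Replicate 1 had 6.66% to 6.74% at the 3 least dilute ratios and 6.63% at 1:1000, so this step between 1:100 and 1:1000 was not seen there. Its part in the results below was not tested.

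Dilution itself was tested as a trend of the untreated libraries per 10-fold step, relative to other mouse miRNAs (edgeR quasi-likelihood test; p-values of all 576 tested entries, mouse and fly, were adjusted together by Benjamini-Hochberg, and 0.05 was the limit for a call). None of the 30 members was called, 1 was higher at an unadjusted p under 0.05, and the background was 0.871% of 459 mouse entries called in each direction. The slopes of the 15 more abundant arms lay between -0.10 for mir-93-5p and 0.11 for mir-19a-3p on the log2 scale. The steepest of the 30, at 0.23 per 10-fold, was that of mir-19b-2-5p, which had an adjusted p of 0.246 in edgeR's test. Without replicate 1 the test called 1 member lower and 4 higher, against 9.39% of mouse entries lower and 8.92% higher.

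**Figure D2:**
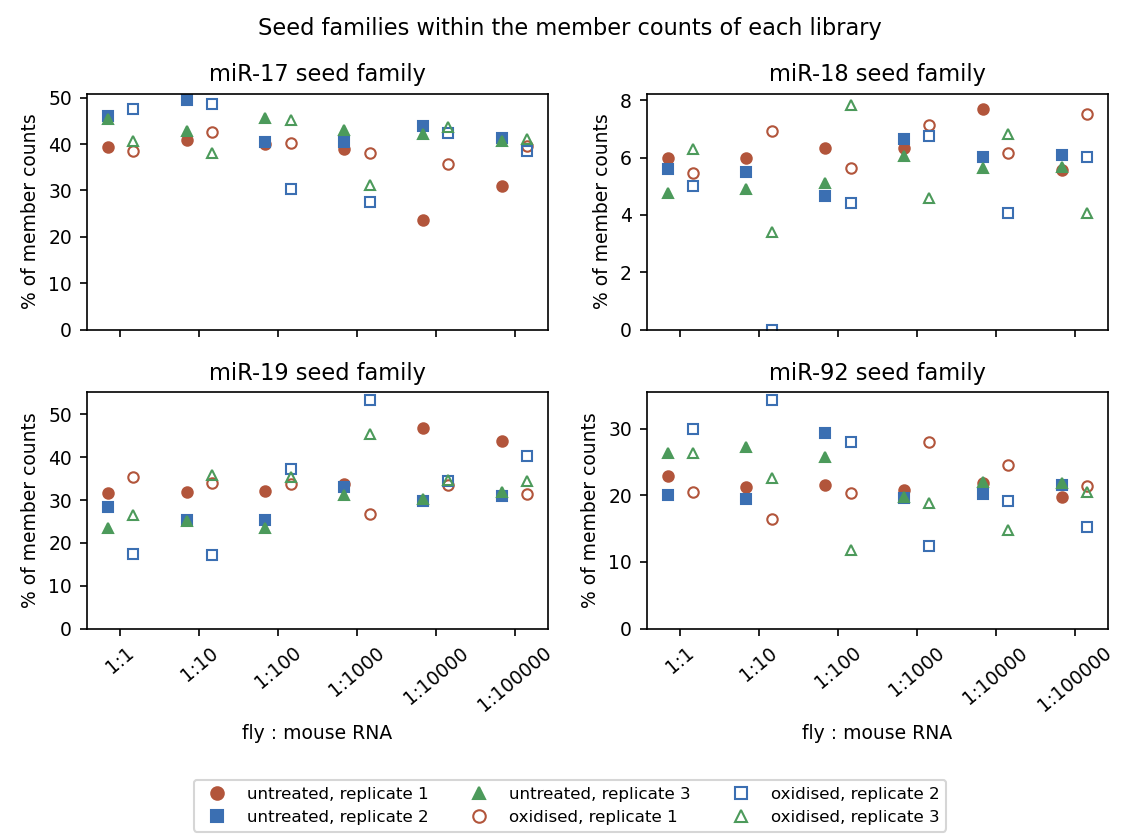
Percent of member counts (y axis, a scale per panel) held by each of the 4 seed families against the fly to mouse ratio (x axis), with filled symbols for untreated and open symbols for oxidised libraries, and circles, squares and triangles for replicates 1, 2 and 3. The untreated circles at 1:10000 and 1:100000 lie apart in the miR-17 panel (23.7% and 31.0%) and in the miR-19 panel (46.7% and 43.7%).

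Against the methylated fly miRNAs of the same mixture, nearly all member counts were lost after oxidation. For each mixture the ratio of member to fly counts in the oxidised library was taken as a percent of the same ratio in its untreated library. At 1:1 the members remaining came to 0.370%, 2.07% and 1.44% in replicates 1 to 3. At 1:10 they came to 0.151%, 0.157% and 0.184%. The 3 values at 1:10 lay below the 3 at 1:1 and close to one another.

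At 1:100 the values were 0.210%, 0.0847% and 0.117%, and at 1:1000 they were 0.197%, 0.187% and 0.101%. These overlapped with each other and with 1:10. At 1:10000 the values were 0.496%, 0.0434% and 0.0350%, and at 1:100000 they were 1.61%, 0.0980% and 0.0259%. Replicate 1 was the highest at both of these ratios, by more than the whole range of replicates 2 and 3. Its untreated libraries there are the 2 that stood apart, and its oxidised libraries held 179 and 253 member counts.

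The geometric means were 1.03% at 1:1, 0.164% at 1:10, 0.128% at 1:100, 0.155% at 1:1000, 0.0910% at 1:10000 and 0.160% at 1:100000. Without replicate 1 the last 2 values were 0.0390% and 0.0504%. Fly counts were few in the most dilute libraries, at 138 to 1823 in untreated 1:100000, which adds to the error of these percents. They also did not follow the 10-fold dilution. From untreated 1:10000 to 1:100000 they went from 608 to 1823, 366 to 138 and 1236 to 460 in replicates 1 to 3, while mouse counts rose in each. By its definition, the percent remaining is raised by excess fly counts in the untreated library. The source of these counts was not tested. Fewer molecules and less ligation of each molecule cannot be told apart in such counts.

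**Figure D3:**
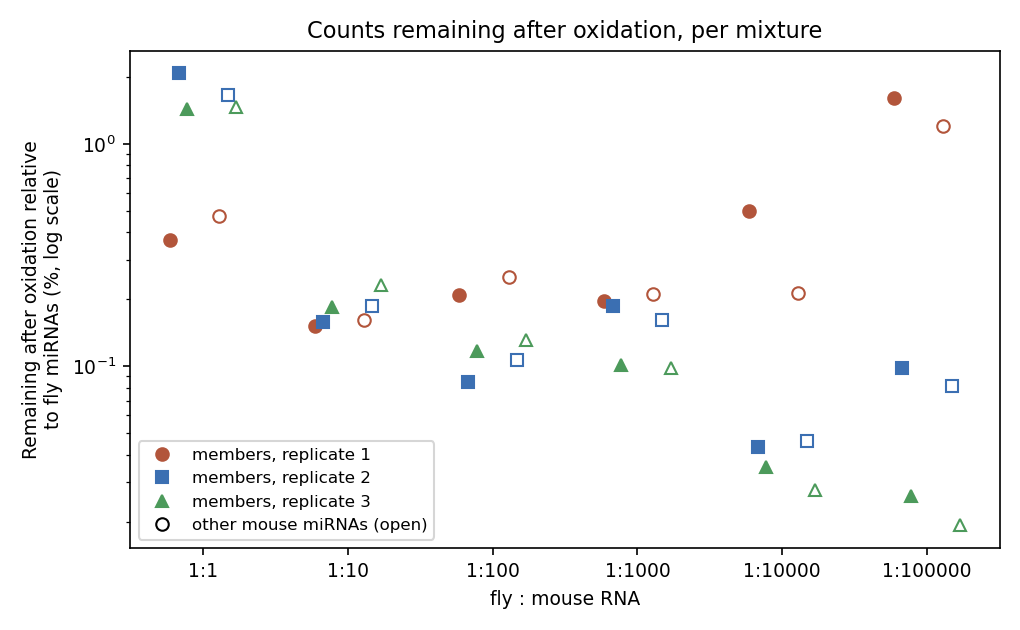
Counts remaining after oxidation relative to fly miRNAs, in percent on a log scale (y axis), by fly to mouse ratio (x axis), with filled symbols for the members and open symbols for all other mouse miRNAs except mir-184-3p, 1 symbol per mixture. The members and the other mouse miRNAs move together, from 0.370% to 2.07% for members at 1:1 down to 0.0259% in the lowest mixture at 1:100000, where replicate 1 lies at 1.61%. Both are divided by the same fly counts in each mixture, so any change in those counts moves both alike by definition.

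The 3 loci and 4 families lay close together. At 1:10 the geometric means were 0.156% for mir-17-92, 0.156% for mir-106a-363 and 0.185% for mir-106b-25. At 1:1000 the families ranged from 0.121% for miR-17 to 0.190% for miR-19, with replicate ranges that overlapped. At 1:100 miR-92 was lowest at 0.0953% and miR-19 highest at 0.169%, again with overlap.

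The loci, and the miR-18, miR-19 and miR-92 families, spread more widely after oxidation than before. The miR-17 family did not when all 18 untreated libraries were counted. Without the 2 untreated libraries that stood apart its untreated SD was 2.90, below its SD after oxidation. After oxidation the mir-17-92 locus held 52.6% ± 4.42 of member counts (SD, n = 18), mir-106a-363 27.8% ± 3.56 and mir-106b-25 19.6% ± 6.08. The miR-17 family held 39.4% ± 5.61, miR-19 33.7% ± 8.50, miR-92 21.4% ± 6.22 and miR-18 5.45% ± 1.88. Within mixtures, the share of mir-106a-363 was higher in the oxidised portion in 15 of 18, by 1.76 ± 3.60 percentage points (SD), and that of mir-17-92 lower in 13 of 18, by a mean difference of -2.53 ± 3.46. The miR-19 family was higher in 13 of 18, at 2.70 ± 9.69. These differences are given without a test. Both locus shares include a copy of mir-92a, and the rule that divided reads between the copies was not given. The mean share of mir-92a-2-3p, in mir-106a-363, was 4.21% of member counts untreated and 5.13% oxidised. That of mir-92a-1-3p, in mir-17-92, was 10.6% and 9.30%. The part of this division in the locus differences was not tested. The single oxidised libraries spread from 17.1% to 53.3% for miR-19, and the miR-18 family was listed at 0 in oxidised 1:10 replicate 2, which held 35 member counts.

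Scaled to fly miRNAs, all 30 members were called lower in the average over ratios and at each of the 6 ratios (edgeR, adjusted p under 0.05). The background was as high: 99.8% of the 459 mouse entries tested were lower in the average. At the ratios from 1:1 to 1:100000 in turn, 97.6%, 98.7%, 98.7%, 99.1%, 99.8% and 99.6% were. The median log2 change in the average was -9.50 for the 30 members and -9.43 for all mouse entries. Among the more abundant arms it ranged from -9.68 ± 0.67 (SE) for mir-363-3p to -9.01 ± 0.57 for mir-92a-2-3p, a spread close to the error of each value. The loss of the more abundant arms was smallest at 1:1, where their median was -6.60, against -10.98 at 1:10000 and -11.00 at 1:100000.

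Relative to other mouse miRNAs, which carry no methyl group either, the members lay on either side, depending on the ratio, and over all 18 mixtures their mean difference was within the spread. The members held 0.447% to 11.1% of mouse counts in the oxidised libraries. Without mir-184-3p they held 4.42% to 11.5%, with a median of 6.60%, against 7.38% in the 16 untreated libraries. The mean log2 difference in this share was -1.02 with all mouse counts and 0.07 without mir-184-3p. Set by set, the shares without mir-184-3p were 5.39% ± 2.08 untreated and 5.46% ± 0.749 oxidised in replicate 1 (SD, n = 6). They were 7.98% ± 1.27 and 8.21% ± 1.97 in replicate 2, and 8.15% ± 0.939 and 8.63% ± 2.40 in replicate 3.

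The percent remaining was divided by that of the other mouse miRNAs for each mixture. It was higher for the members in 8 and lower in 10 of 18 mixtures, with a mean log2 ratio of 0.07 ± 0.39 (SD). The ratio was below 0 in 3 of 3 mixtures at 1:10, at -0.22 ± 0.12, and at 1:100, at -0.25 ± 0.09. It was above 0 in 3 of 3 mixtures at 1:100000, at 0.38 ± 0.09. At 1:10000 the values spread from -0.08 to 1.21, the highest being replicate 1 with its low untreated share. The sign at 1:10 depended on the reference. There the mir-290 to mir-295 cluster had 0.146%, 0.177% and 0.227% remaining in replicates 1 to 3, and the members 0.151%, 0.157% and 0.184%. The members were thus above this cluster in replicate 1. Against the same cluster they were lower in each mixture at 1:100 and higher in each at 1:100000.

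Entry by entry, 4 of 30 members were called lower and 0 higher in the average over ratios (edgeR, scaled to mouse miRNAs, adjusted over all 576 entries), against a background of 7.84% of mouse entries lower and 3.49% higher. With each mixture as a block, 2 members were called lower, against 5.01% of mouse entries. Without replicate 1 the count was 1, and without replicate 2 it was 0, with 3.29% and 0.968% of mouse entries called lower. At an unadjusted p under 0.05, 7 were lower and 0 higher. All 4 were less abundant arms with at least 1 oxidised group at 0, so no fold is given for them. They were mir-106a-3p (adjusted p = 0.0494), mir-19a-5p (0.0138), mir-20b-3p (0.0334) and mir-92a-1-5p (0.0128).

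The guides gave no such call. None of the 15 more abundant arms was called in the average or at any ratio. Their median log2 change was 0.06, against 0.02 for 152 other abundant mouse entries. Those entries had mean untreated counts at or above that of mir-18b-5p, the lowest of the 15 arms. The highest changes among the arms were those of mir-92a-2-3p at 0.31 (95% interval -0.25 to 0.86) and mir-18b-5p at 0.29 (-0.27 to 0.85). Then came the miR-19 guides mir-19b-1-3p at 0.25, mir-19b-2-3p at 0.24 and mir-19a-3p at 0.22, each with an SE of 0.17 to 0.18, and mir-106b-5p at 0.20 ± 0.16. The other copy of mir-92a, mir-92a-1-3p, encodes the same mature miRNA as mir-92a-2-3p and lay among the lowest changes, given below. How reads were divided between these copies is not given, so the change of either copy alone is uncertain.

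In the middle lay mir-20a-5p at 0.06 ± 0.20, mir-20b-5p at 0.06 ± 0.19, mir-18a-5p at 0.03 ± 0.18, mir-93-5p at 0.01 ± 0.16 and mir-25-3p at 0.00 ± 0.16. Below 0 were mir-106a-5p at -0.06 ± 0.22, mir-92a-1-3p at -0.19 ± 0.16, mir-17-5p at -0.23 ± 0.19 and mir-363-3p at -0.31 ± 0.25. The 15 intervals all include 0. Their outer bounds were 0.86 and -0.82 on the log2 scale. The estimate for mir-18b-5p depended on replicate 1: relative to the median of the other abundant mouse entries it was 0.27, and -1.60 without replicate 1. Without the 2 untreated libraries that stood apart, the change of mir-17-5p relative to the median of the other abundant mouse entries went from -0.25 to -0.45, and that of mir-106a-5p from -0.08 to -0.30.

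Which direction the guides take depends on the scaling. With size factors of DESeq2, mouse totals without further factors, totals of both species, or factors from all tested mouse entries, all 15 lay below 0 in the average, with medians of -0.82, -1.07, -1.30 and -0.48. Of the 30 members 19, 26, 30 and 15 were then called lower, against 35.4%, 68.6%, 82.4% and 29.8% of all mouse entries tested. The other abundant mouse entries shifted with the guides, to medians of -0.77, -1.06, -1.32 and -0.49. The guides' median relative to them lay between -0.08 and 0.14 in the average under the 14 alternatives tried.

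**Figure D4:**
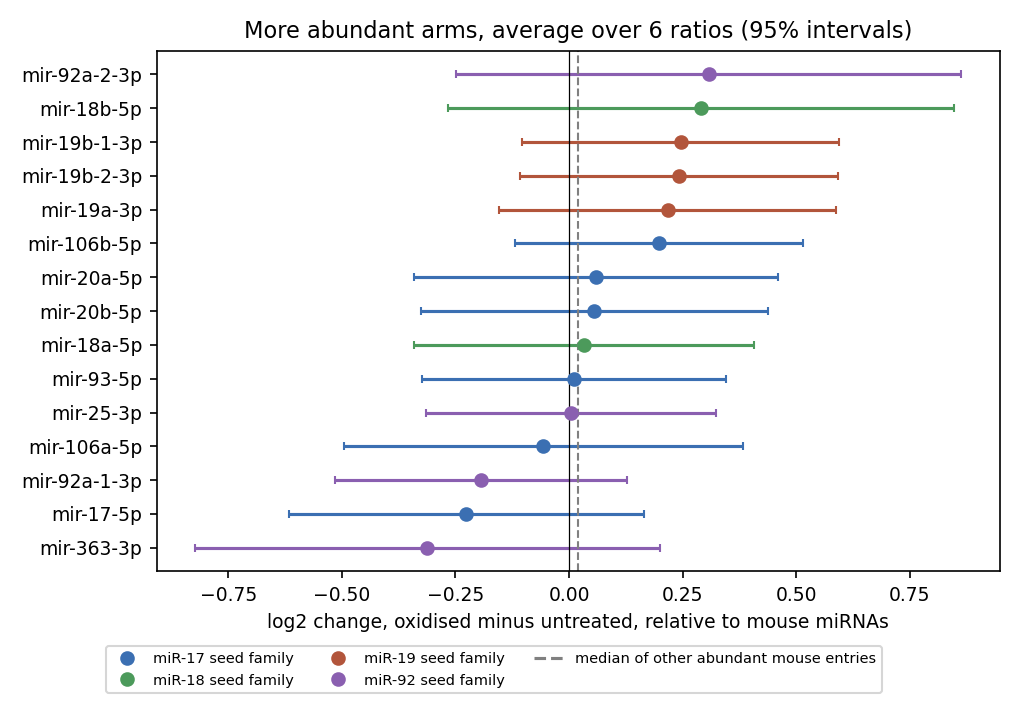
Log2 change after oxidation relative to mouse miRNAs, averaged over 6 ratios (x axis), for the more abundant arm of the 15 hairpins (y axis), with bars for 95% intervals and colours for seed families. Each bar crosses 0, and the points run from -0.31 for mir-363-3p to 0.31 for mir-92a-2-3p around the dashed median of the other abundant mouse entries at 0.02. The entries mir-92a-2-3p and mir-92a-1-3p are copies of the same mature miRNA, and how reads were divided between them is not given.

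At single ratios the calls were few and lay among the less abundant arms. At 1:1, 1:10 and 1:100 none of the 30 members was called, with 0, 1 and 1 members at an unadjusted p under 0.05. The background there was 0.00% lower and 1.74%, 3.05% and 5.23% higher. With DESeq2 2, 3 and 3 members were called, all lower, against 2.43%, 2.41% and 2.63% of mouse entries called lower.

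At 1:1000 only mir-19b-1-5p was called, 2.19 ± 0.62 higher on the log2 scale (adjusted p = 0.00705, edgeR), against 4.58% of mouse entries called higher and 0.871% lower. Its oxidised counts there were 0, 7 and 12 in replicates 1 to 3, and its untreated counts 406, 74 and 1110. No member was called at this ratio without replicate 2, without replicate 3, or with each mixture as a block.

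At 1:10000, 4 members were called lower and 2 higher, against a background of 13.3% lower and 5.45% higher. The 2 higher were mir-25-5p and mir-363-5p, the less abundant arms of the miR-92 family hairpins mir-25 and mir-363. Oxidised 1:10000 replicate 2 held 36 of the 37 oxidised counts of mir-25-5p and 58 of the 63 of mir-363-5p. The other oxidised libraries at 1:10000 held 0 of either. The 4 lower were mir-106a-3p, mir-19a-5p and mir-19b-1-5p, all with 0 counts in the 3 oxidised libraries, and mir-92a-1-5p with 0, 0 and 1. Without replicate 2 none of the 30 was called at this ratio. With each mixture as a block 1 was called lower, against 7.19% of mouse entries.

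At 1:100000 mir-106a-3p and mir-19a-5p were called lower, again with 0 counts in the 3 oxidised libraries, against a background of 1.09% lower and 2.40% higher. With each mixture as a block, or without any 1 replicate, no member was called there. The trend of the oxidation change per 10-fold dilution was called for none of the 30 members (background 0.436% lower and 0.00% higher), with 0 at an unadjusted p under 0.05. DESeq2 called 1 lower and 1 higher, against 1.61% and 0.691% of mouse entries. The trend slopes of the more abundant arms ran from -0.07 to 0.24 with a median of 0.06 on the log2 scale.

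The arms of a hairpin were compared as shares of its counts, which needs no scaling between libraries. The less abundant arms together held 2.49% ± 0.643 of member counts in untreated and 2.20% ± 0.673 in oxidised libraries (SD, n = 18 each), ranges that overlapped. Summed over the 18 untreated libraries, the less abundant arm held from 0.338% of its hairpin for mir-19b-2-5p to 5.21% for mir-20b-3p in 14 hairpins. The exception was mir-18b, whose 3p arm held 25.8% of the summed counts and from 17.5% to 46.5% in single untreated libraries, the highest being the 2 that stood apart. Intervals on summed counts below are 95% Wilson intervals and cover counting error only, since reads were not collapsed to molecules.

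The 3p share was tested in 12 hairpins, with copies summed and at least 10 counts per library (exact two-sided permutation test within ratios, Benjamini-Hochberg adjustment over 12). In mir-20b the 3p share was 3.74% to 14.4% in untreated libraries with a median of 5.31%. It was 0.00% to 7.14% in the 13 oxidised libraries with enough counts, with a median of 2.93%. The means were 6.48% ± 3.13 and 2.59% ± 2.73, and the difference averaged over ratios was -4.15 percentage points (exact p = 0.000767, adjusted p = 0.00921). It was lower in 11 of 13 mixtures, although the ranges overlapped. Summed, mir-20b-3p went from 5.21% (5.13% to 5.29%) to 2.20% (1.41% to 3.41%), on 19 oxidised counts.

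In mir-92a the 3p share was 97.1% to 99.4% untreated, with a median of 98.8%, and 96.9% to 100.0% oxidised, with a median of 100.0%. The difference was 0.84 percentage points (exact p = 0.00674, adjusted p = 0.0404). With each mixture as a block, mir-20b passed (adjusted p = 0.0286 in the exact sign-flip test) and mir-92a did not (0.290). Neither passed with at least 50 counts per library or without replicate 1 or 2. An oxidised library with few counts can only take coarse values of a small share, and 0 was such a value in 6 of the 13 oxidised libraries for mir-20b.

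The other 10 hairpins tested did not pass, with mean differences from -10.2 percentage points in mir-363 to 0.66 in mir-106b. The value of mir-363 rests on 6 oxidised libraries and on the 58 counts of mir-363-5p in oxidised 1:10000 replicate 2. Summed over libraries, mir-363-5p went from 4.65% to 23.8% (19.05% to 29.3%) of its hairpin and mir-25-5p from 0.977% to 3.19% (2.32% to 4.36%). Without that library the shares were 3.16% and 0.135%. The less abundant arm mir-106b-3p, at 4.95% untreated and 7.17% (5.87% to 8.73%) oxidised, also drew 39 of its 90 counts from that library and was at 5.93% without it.

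Lower summed shares were found for mir-19a-5p, from 1.16% to 0.230% (0.0895% to 0.590%) on 4 oxidised counts (0.0607% without oxidised 1:10 replicate 1, which held 3 of them), for mir-17-3p, from 4.65% to 2.91% (2.21% to 3.81%), and for mir-18b-3p, from 25.8% to 13.3% (8.21% to 20.8%) on 15. The share of mir-92a-1-5p was 1.22% untreated and 1.23% (0.769% to 1.96%) oxidised, although that arm was called lower in the average over ratios. 12 of its 17 oxidised counts came from oxidised 1:100000 replicate 2. The untreated shares of mir-19b-1-5p, at 1.21% against 1.18% oxidised, and of mir-20a-3p, mir-18a-3p, mir-93-3p, mir-106a-3p, mir-19b-2-5p and mir-92a-2-5p lay within their oxidised intervals. Of these, mir-106a-3p had also been called lower in the average over ratios. Its untreated share was 1.89%, and its oxidised interval was 0.374% to 2.03%.

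**Figure D5:**
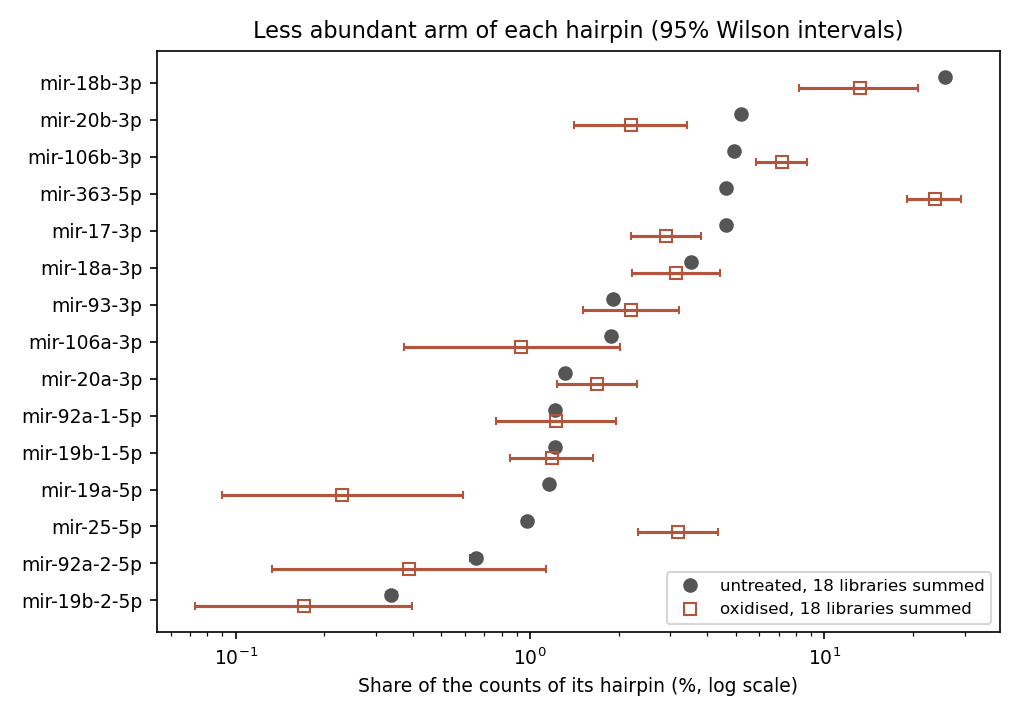
Share of the hairpin's counts held by its less abundant arm, in percent on a log scale (x axis), for 15 hairpins (y axis), with filled circles for the sum of 18 untreated and open squares for the sum of 18 oxidised libraries, and bars for 95% Wilson intervals. The share of mir-20b-3p fell from 5.21% to 2.20%, while mir-363-5p and mir-25-5p stand at 23.8% and 3.19% after oxidation, with 58 of 63 and 36 of 37 counts from 1 library.

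The copies of mir-92a were not divided evenly as those of mir-19b were. The counts of mir-92a-2-3p were 26.5% to 33.1% of the 3p counts of both copies in untreated libraries, with a median of 28.4%. In oxidised libraries they were 20.0% to 47.4%, with a median of 36.4%. The share was higher after oxidation in 15 of 18 mixtures, and in 9 of the 10 with at least 50 oxidised counts, while ranges overlapped. As this comparison was chosen after its values were seen, it is given without a test. Both copies encode the same mature miRNA, their counts also differed by a whole number in 36 of 36 libraries, and the rule by which reads shared by copies were assigned is not given in the sources used here. Levels of the single copies are therefore uncertain.

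Of the relatives outside the member list, the fly entry of the same name as mir-92a had counts that did not fall with the fly share. The entry dme-mir-92a-3p, from a fly gene of the miR-92 seed family, had 26, 0 and 10 counts in untreated 1:1 libraries and 2, 7 and 48 at 1:100000. In untreated 1:100000 replicate 3 these 48 counts were 10.4% of all 460 fly counts. It had 1.17 to 6.73 counts per 10000 counts of mouse mir-92a 3p in 17 untreated libraries and 0 in untreated 1:1 replicate 2. Over the 18 oxidised libraries it had 6 counts in all, against 391 in the untreated ones.

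Its relative dme-mir-92b-3p fell with the fly share. Its untreated counts were 289, 24 and 159 at 1:1 and 1, 0 and 2 at 1:100000, a trend of -2.04 ± 0.18 on the log2 scale per 10-fold dilution (adjusted p = 8.83e-11, edgeR). It kept 192 counts in the oxidised libraries against 668 untreated. Leaving dme-mir-124 and the fly mir-92 and mir-310 families out of the fly totals changed the percent remaining of the members at 1:100000 from 0.160% to 0.110%.

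The mouse relatives of the seed families that lie outside the 3 loci, mir-32, mir-92b and mir-367, had 4 entries tested, of which 0 were called in the average (1 lower at an unadjusted p under 0.05). That 1 was mir-32-3p, the arm of mir-32 that does not carry the miR-92 seed. The arms that carry it, mir-32-5p, mir-367-3p and mir-92b-3p, had log2 changes of 0.32, 0.30 and -0.79. The mir-290 to mir-295 cluster, whose ES cell miRNAs share part of the miR-17 seed, had 0 of 14 entries called in the average (0 at an unadjusted p under 0.05) and a median log2 change of -0.12.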

How the data were processed

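Small RNAs of 18 to 30 nt were sequenced in 36 libraries. The authors deposited expected counts (estimated counts that need not be whole) per hairpin arm and library, unscaled, of which 80.6% to 98.1% of values were whole. Per the submitters' processing notes, cutadapt 1.2.1, HTSeq 0.6.1p1, mm10 and dm3 were used. The aligner and the rule for shared reads were not given in the sources used here. Set 1, whose labels carry no number, was taken as replicate 1. Of all entries 257 are absent from its tables, none of them a member.

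Members and lists were chosen with earlier results of these data known. The named arms are the more abundant arm of each hairpin, other arms called in the average or a trend, and the extremes. Counts were rounded and tested with edgeR 4.0.16 (quasi-likelihood, all 36 libraries, 12 group means, filterByExpr with a minimum count of 10 and total of 15, R 4.3.3), with Benjamini-Hochberg adjustment over 576 entries, and all 30 members passed the filter. Libraries were scaled to mouse totals times TMM factors from the 50 most abundant mouse entries (20 for fly). This restriction was made after the first result was seen, because factors from all tested entries called unchanged entries in simulated data. With those factors 15 members were called lower in the average. DESeq2 1.42.0 was an alternative. Exact tests used scipy 1.17.1.

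Total counts were 326776 to 16619600 untreated and 3654 to 1312980 oxidised. No 2 libraries agreed within sampling noise (lowest chi-square per degree of freedom 2.91 over 630 pairs). Pairs come from the labels, by which each mixture was split. Deviations of paired libraries from their group means, over 300 entries, had a median r of 0.217, and 14 of 18 pairs were over 0.1.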

Additional observations from a re-analysis of the deposited data

Results flagged for a closer look

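The members' loss relative to other mouse miRNAs lay on opposite sides at different ratios. Their percent remaining, divided by that of the other mouse miRNAs, had a mean log2 ratio of -0.22 at 1:10 and -0.25 at 1:100, below 0 in 3 of 3 mixtures at each. At 1:100000 it was 0.38, above 0 in 3 of 3. With the mir-290 to mir-295 cluster as the reference, the members were not lower in each mixture at 1:10. In replicate 1 they had 0.151% remaining and the cluster 0.146%. These ratios were flagged because all 3 mixtures at each lay on the same side, so the counts of 3 of 3 are no separate support. The difference between ratios in the sum of the members was not tested. Entry by entry, edgeR called the trend of the oxidation change for 0 of 30 members, against 0.436% of mouse entries lower and 0.00% higher. The oxidised libraries behind these values held 35 to 1347 member counts at 1:10 and 1:100, and 253 to 4993 at 1:100000. The value at 1:100000 includes untreated replicate 1, one of the libraries that stood apart, whose mixture gave 0.43, against 0.27 and 0.43 in replicates 2 and 3. Groups of 3 are too small for the test of outlying values.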

How the results depend on the processing

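The counts of members called depended on the scaling more than on any filter. Under the scalings and tests tried, called members are given against the value in the report, for changes relative to mouse miRNAs. In the average, 4 were lower, against 19 with DESeq2, 26 with mouse totals without TMM, 30 with totals of both species and 15 with TMM factors from all tested entries, the last added after seeing the data. Of all mouse entries 7.84% were lower, against 35.4%, 68.6%, 82.4% and 29.8% in that order. For 1:1 the report has 0, against 2 with DESeq2, 25 without TMM and 14 with both species, all lower. Mouse entries were then called lower in 2.43%, 78.9% and 27.9%. For 1:10 the report has 0, against 3, 22 and 27 in the same order, with 2.41%, 40.3% and 51.4% of mouse entries lower. For 1:100 the report has 0, against 3, 1 and 1, and 1 with factors from all entries. Mouse entries were called lower there in 2.63%, 0.871%, 0.654% and 0.436%. For 1:1000 the report has 1, against 6, 2 and 2, 2 without mir-184-3p in the totals, and 4 with factors from all entries. Mouse entries were called lower there in 6.13%, 1.09%, 1.96%, 1.53% and 3.70%, and higher in 3.06%, 4.14%, 2.40%, 4.58% and 3.05%. For 1:10000 the report has 6, against 3 without TMM and 3 without a filter on low counts. Of mouse entries 8.71% were lower and 6.10% higher without TMM, and 2.08% and 2.02% without a filter. For 1:100000 the report has 2, against 1 with DESeq2 (2.41% of mouse entries lower) and 0 each without TMM, with both species, without a filter and with copies summed. The trend of the change had 0, against 2 with DESeq2, 21 without TMM and 11 with both species. Mouse entries were called higher in 0.691%, 49.2% and 12.9% in that order. The untreated trend had 0, against 1 without mir-184-3p, 1 with factors from all entries and 1 without the 2 untreated libraries that stood apart. Each of these calls was higher, against 3.05%, 1.74% and 2.14% of mouse entries. The cause of these differences was not tested.

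With each mixture as a replicate block, 2 members were called lower in the average, 0 at 1:1000, 1 at 1:10000 and 0 at 1:100000. Of mouse entries 5.01% were lower in the average and 7.19% at 1:10000. With the replicate set as a block, 1 member was called lower at 1:100000 and 1 higher in the untreated trend, against 0.871% and 2.40% of mouse entries. In the arm shares 2 hairpins were called, against 1 with pairing of mixtures, 0 with at least 3 and 0 with at least 50 counts, 1 without 3 shallow oxidised libraries and 1 without the 2 untreated libraries that stood apart. Without those untreated libraries 1 member was called lower at 1:100000, against 0.855% of mouse entries. Leaving out 1 replicate, or the shallow oxidised libraries, gave 0 to 3 members in the average, 0 to 2 at 1:1000, 0 to 7 at 1:10000, 0 at 1:100000, 0 to 5 in the untreated trend and 0 to 1 hairpins. Mouse entries called lower in these fits were 0.968% to 7.02% in the average, 0.00% to 15.7% at 1:10000 and 0.161% to 9.39% in the untreated trend. Those called higher were 1.94% to 4.69% at 1:1000, 1.61% to 9.39% at 1:10000 and 0.00% to 8.92% in the untreated trend.

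The percent remaining at each ratio moved by less than its spread in the alternatives tried. At 1:10000 and 1:100000 that spread was itself widened by replicate 1, to a log2 SD of 2.12 and 3.04. The spread is therefore a weak limit there for leaving out replicate 1, which lowered both means, as given above. Of the recomputed changes of guides relative to other abundant mouse entries, 187 moved by less than 1 SE and 19 by more, the farthest being mir-18b-5p at -1.60 without replicate 1. Oxidised libraries with few member counts limit all arm values.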
